A study of Caenorhabditis elegans with 8 samples.

Results

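The nuclear hormone receptors named nhr were followed in larvae of the nematode Caenorhabditis elegans that differ in redox state. The members were all rows of the count table whose sequence name belongs to a gene with the symbol nhr- and a number in the Ensembl annotation of WBcel235, which gave 269 of 45461 rows, every one of them protein-coding. RNA came from L2 larvae of the N2 background carrying jrIs2[Prpl-17::Grx1-roGFP2], a glutathione redox sensor driven by the promoter of a ribosomal protein gene. Both groups carry the sensor and were grown at 20 °C from synchronized eggs, and each replicate pooled about 10000 worms. The groups are worms labelled reduced and worms labelled oxidized, each with 4 biological replicates numbered 1, 2, 3 and 5; the titles read High for the reduced and Low for the oxidized libraries.

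Nuclear hormone receptors are transcription factors with a zinc finger domain that binds DNA and a domain that, in many members, binds a small lipophilic ligand. The nematode family is far larger than that of insects or vertebrates, and most of its additional members descend from a receptor like vertebrate HNF4. Members with known roles govern moulting (NHR-23 and NHR-25), fat metabolism (NHR-49 and NHR-80), propionate breakdown (NHR-10 and NHR-68) and resistance to toxins (NHR-8).

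The libraries held 635990 to 1089259 counts. Levels are given as CPM, the count scaled by the library's total. A floor of 3 counts amounted to 2.71 to 4.70 CPM depending on the library, and such floors reflect counting error alone. Groups follow the redox characteristic, but the source name of replicate 5 states the other redox state, so the nhr-8 result is also given without that replicate. A row of this table need not hold the reads of the gene it is named after. Of the 13 genes that lie almost wholly inside an nhr exon on the other strand, 7 had at least 10 counts in either row. In all 7 the inner row had the higher count per exon base. Only nhr-6 and nhr-209, with 20 and 22 counts, reached 10 themselves, against 408 for C48D5.8 and 44 for 21ur-14827 inside them. The other pairs entered through the inner row alone, so their outcome was fixed by that choice. Because a row need not hold the reads of its gene, the text speaks of rows. For each tested nhr row it gives the genes on the other strand that share at least 20 exon bases. For other rows such genes are given only in part, so silence there does not mean that no bases are shared. Of 24 rows of tissue marker genes, 17 held at least 10 counts, and 4 markers, vit-6, col-19, hlh-1 and gld-1, were at 0. Why these 4 were at 0 was not tested. Because whole larvae were measured, fewer cells of a type and less RNA per cell cannot be told apart.

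Most nhr rows were empty. Of the 269 rows, 170 (63.2%) had no count in any library, compared with 45.3% of the 19268 protein-coding rows. A further 61 rows held 1 to 9 counts, 26 held 10 to 29, 4 held 30 to 99, 6 held 100 or more but under 1000, and 2 held more. The nhr-8 row alone held 8280 of the 15763 counts of the family (52.5%), and the nhr-61 row held 5109 (32.4%). The other 267 rows shared 2374 counts.

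**Figure D1:**
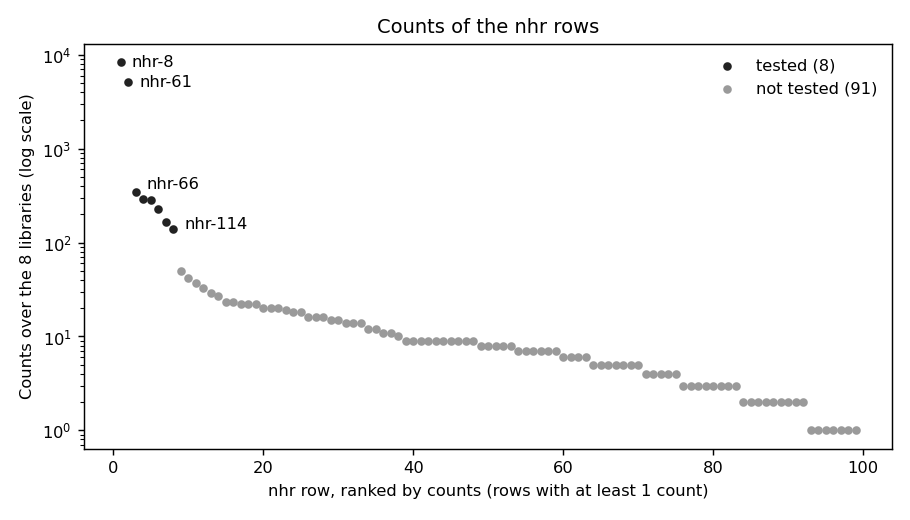
Counts over the 8 libraries (log scale) of each nhr row with at least 1 count, ranked from highest to lowest; black points are the 8 rows that held enough counts for a test and grey points the 91 that did not. The nhr-8 and nhr-61 rows, at 8280 and 5109 counts, stand more than a decade above nhr-66 at 344, and a gap separates nhr-114, the lowest tested row at 141, from the rest at 50 or fewer.

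Enough counts for a test were found in 8 rows (2.97%), against 9.57% of protein-coding rows. These were nhr-8, nhr-61, nhr-66, nhr-115, nhr-85, nhr-19, nhr-101 and nhr-114. The lowest of them, nhr-114, held 141 counts, and the highest row left out, nhr-246, held 50. The family is concentrated on chromosome V, which carries 167 of its genes, but only 3 tested rows lie there. A count was present in 29.9% of the rows on chromosome V and in 65.2% of the 23 rows on chromosome X, where no row was tested. Chromosomes II and IV had 2 tested rows each and chromosome I had 1.

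The question the design poses for this family is whether any receptor row differed between oxidized and reduced larvae. Only nhr-8 passed: 1 of 8 tested rows rose in oxidized worms and 0 fell (edgeR quasi-likelihood test, Benjamini-Hochberg adjusted over 2315 rows). Over all rows tested, 0.216% were called higher and 0.0% lower. At an unadjusted p under 0.05 there were 2 nhr rows, nhr-8 above 0 and nhr-19 below it, while 5.27% of all rows tested reached that level. DESeq2 and limma voom each called 1 nhr row, nhr-8, higher, where they called 0.389% and 0.13% of all rows higher, and neither called an nhr row lower. The median log2 fold change of the 8 rows was 0.14, beside −0.048 over all rows tested, with 5 rows above 0 and 3 below.

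**Figure D2:**
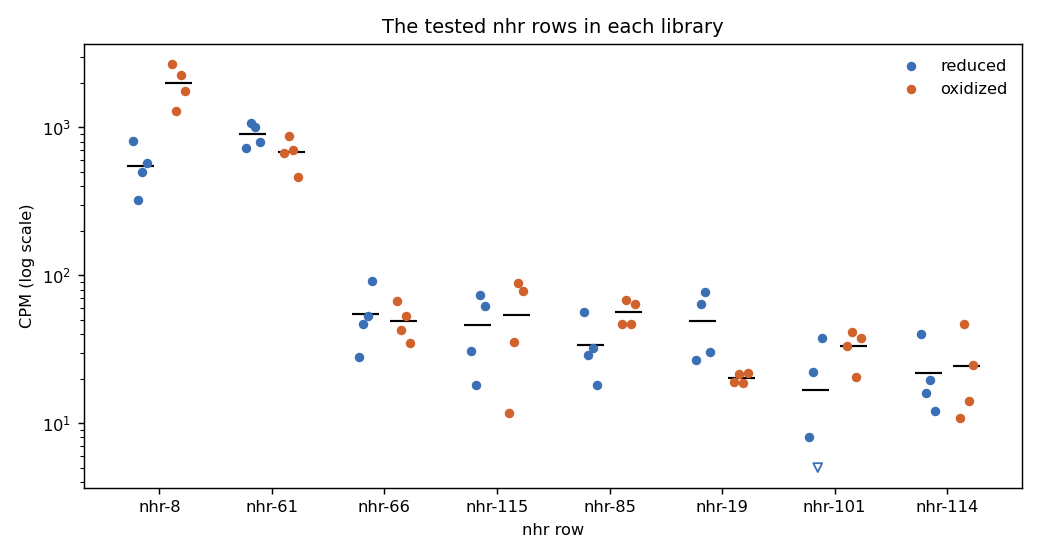
CPM (log scale) of the 8 tested nhr rows in each library, with reduced libraries in blue, oxidized libraries in orange and a black bar at each group's mean; the open triangle marks a library with 0 counts, drawn at the foot of the axis. For nhr-8 all oxidized libraries (1295 to 2674 CPM) lie above all reduced ones (321 to 805 CPM), for nhr-19 all oxidized libraries lie below, and the groups of the other 6 rows overlap.

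NHR-8 is a receptor related to DAF-12 and to the vertebrate vitamin D and pregnane receptors, and worms without it are sensitive to toxins and handle cholesterol poorly. Its row (F33D4.1, WBGene00003607) held 805, 321, 498 and 572 CPM in reduced replicates 1, 2, 3 and 5. In oxidized replicates 1, 2, 3 and 5 it held 2674, 1295, 2246 and 1768 CPM. The lowest oxidized library thus stood above the highest reduced one, a separation found in 1.99% of the rows tested. The mean level was 549 ± 201 CPM in reduced worms and rose to 1996 ± 596 CPM in oxidized worms (SD over 4 replicates). The log2 fold change was 1.87 (SE 0.35, 95% confidence interval 1.15 to 2.59, edgeR adjusted p = 0.0127). By p it ranked 3 of the 2315 rows.

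The difference was of similar size in every pair of libraries with the same replicate number, which share a date in their titles. The log2 ratio of oxidized to reduced CPM was 1.73 in replicate 1 and 2.01 in replicate 2, both dated June28. It was 2.17 in replicate 3, dated July7, and 1.63 in replicate 5, dated August6. Replicates 1 and 2 share a date, so the date alone does not settle which of their libraries form a pair. With the replicate number as a block the nhr-8 row had a log2 fold change of 1.88 and an edgeR adjusted p of 0.000661, where 0.475% of rows were called higher and 0.173% lower. Without both libraries of replicate 5 the value was 1.96 (edgeR adjusted p = 0.0161), and with the labels of that replicate exchanged it was 1.003 (edgeR adjusted p = 0.998). The call was lost without reduced replicate 2 (edgeR adjusted p = 0.0650), reduced replicate 3 (0.0949) or oxidized replicate 3 (0.0942), while the log2 fold change stayed between 1.69 and 2.13 in the 8 fits that left out 1 library. In replicates 3 and 5 the titles of the reduced libraries read R4 and those of the oxidized libraries R5, so what these letters mark cannot be told apart from redox state there.

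**Figure D3:**
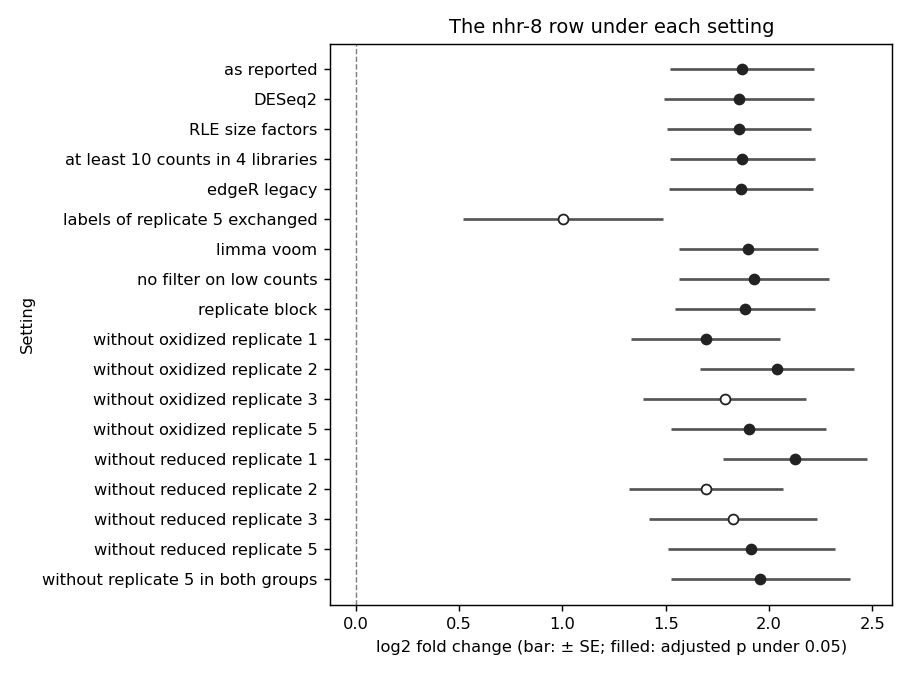
Log2 fold change of the nhr-8 row, oxidized minus reduced, as reported and under each alternative setting; bars show the SE and filled points an adjusted p under 0.05. All values lie above 0, the exchange of the labels of replicate 5 gives the lowest at 1.003, and 4 settings fall short of the threshold.

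The nhr-8 gene lies on the plus strand of chromosome IV at 7710983 to 7714210 and has 1890 exon bases. At its 3′ end it meets F33D4.6, a protein-coding gene on the minus strand at 7714164 to 7718016. The shared stretch of 47 exon bases, 7714164 to 7714210, includes 3 bases of nhr-8 coding sequence. A piRNA gene, 21ur-14273, lies inside an nhr-8 exon on the same strand and its row was at 0. The F33D4.6 row held 150 counts in all, against 8280 for nhr-8. Its level was 2.67, 12.01, 6.96 and 21.7 CPM in reduced replicates 1, 2, 3 and 5. In oxidized replicates 1, 2, 3 and 5 it was 56.9, 5.69, 32.9 and 36.3 CPM. It was higher in oxidized worms in 3 of 4 pairs, its groups overlapped, and it did not pass (log2 fold change 1.62, SE 0.71, edgeR adjusted p = 0.916). Whether the nhr-8 row holds reads of nhr-8 or of F33D4.6 was not tested.

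The summed levels of tissue marker rows in the same libraries overlapped between the groups for all 6 tissues. The summed level of 4 germ line rows (pgl-1, glh-1, gld-1 and nos-1) was 6.03 to 32.0 CPM in reduced and 0 to 8.54 CPM in oxidized libraries, with gld-1 at 0 throughout. The 4 hypodermis rows (dpy-7, elt-3, lin-26 and col-19) summed to 0 to 27.0 CPM in reduced and 17.1 to 86.7 CPM in oxidized libraries. The dpy-7 row held 160 of their 181 counts, with col-19 at 0, so this sum mostly follows dpy-7. The 4 intestine rows (elt-2, vha-6, ges-1 and vit-6) summed to 7.24 to 32.1 CPM in reduced and 17.2 to 23.5 CPM in oxidized libraries. Of their 109 counts vha-6 held 83, and vit-6 was at 0. The body wall muscle, neuron and pharynx rows summed to 220 to 1063, 26.5 to 74.1 and 134 to 557 CPM in reduced libraries and to 196 to 423, 19.9 to 59.5 and 144 to 280 CPM in oxidized ones, with hlh-1 of muscle at 0. Their part in the nhr-8 result was not tested.

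The rows most like nhr-8 over the 8 libraries were pccb-1, F53B1.2, gstk-2, cgp-1 and ZK546.3. Their log2 CPM correlated with that of nhr-8 at Pearson's r of 0.968, 0.934, 0.925, 0.897 and 0.891, as a description over libraries that also share the redox contrast. F53B1.2 did not pass as reported (log2 fold change 1.43, edgeR adjusted p = 0.0830) but passed with the replicate block (0.00999) and with DESeq2 (DESeq2 adjusted p = 0.0184). The pccb-1 row shares 43 exon bases with wrt-2 on the other strand, F53B1.2 shares 45 with bus-5, and gstk-2 shares 44 with elo-3. For cgp-1 and ZK546.3 the shared bases were 4 and 0. Among nhr rows the correlation with nhr-8 ranged from −0.874 for nhr-19 to 0.648 for nhr-85.

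The nhr-61 row was the other abundant member. It held 720, 1064, 1013 and 790.5 CPM in reduced replicates 1, 2, 3 and 5, and 671, 874, 705 and 460.2 CPM in the oxidized ones. The oxidized library was the lower in all 4 pairs, by 0.10, 0.28, 0.52 and 0.78 on the log2 scale. The groups overlapped, and the log2 fold change of −0.41 (SE 0.32, 95% confidence interval −1.07 to 0.25) did not pass (edgeR adjusted p = 0.999). Scaled to exon length, its level was 651 CPM per kilobase in reduced worms against 291 for nhr-8, and 492 against 1056 in oxidized worms.

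The nhr-61 gene spans chromosome II at 14816136 to 14818543 on the minus strand. No gene shares 20 exon bases with it, but 5 bases at its 3′ end lie in W01D2.1, which RefSeq names rpl-37.1, a gene for a protein of the large ribosomal subunit. The W01D2.1 row held 3375 counts. Its level was 343, 896, 536 and 317 CPM in reduced replicates 1, 2, 3 and 5. In oxidized replicates 1, 2, 3 and 5 it was 769, 344, 460 and 271 CPM. W01D2.1 was lower in oxidized worms in 3 pairs and higher in replicate 1, unlike nhr-61, and it did not pass (log2 fold change −0.18, SE 0.39, edgeR adjusted p = 0.999).

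**Figure D4:**
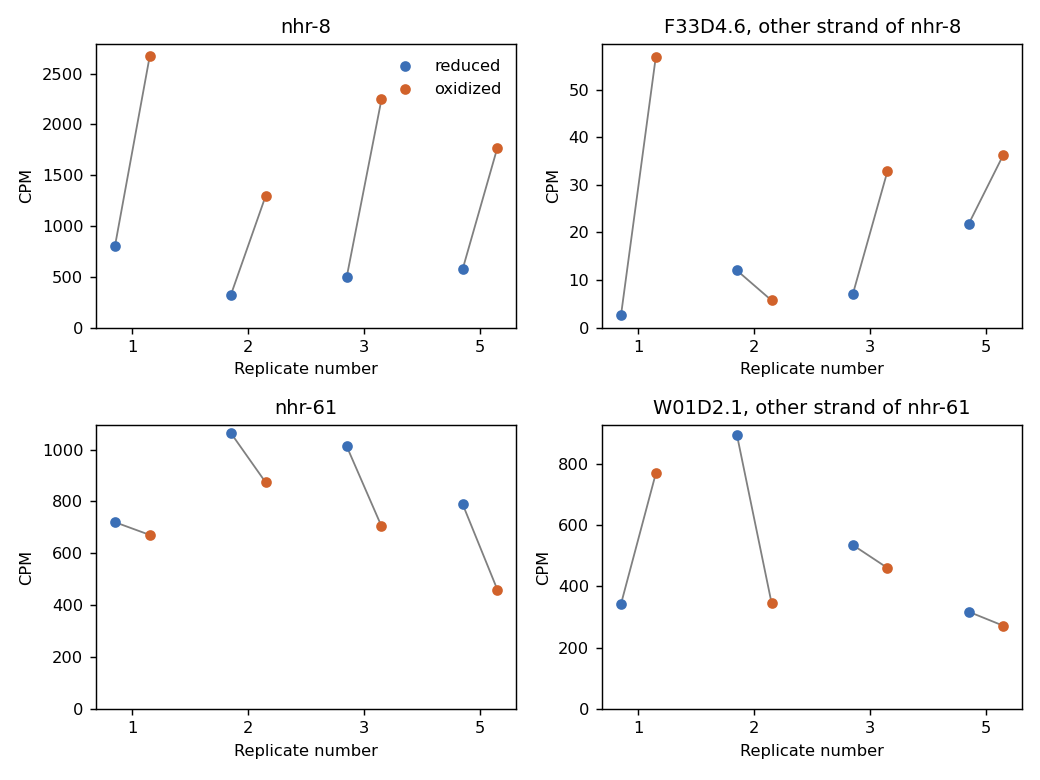
CPM of nhr-8, nhr-61 and the gene at the 3′ end of each on the other strand, in each replicate number, with reduced libraries in blue, oxidized libraries in orange and a line joining libraries of the same number. The nhr-8 row is higher and the nhr-61 row lower in the oxidized library of all 4 pairs, whereas F33D4.6 falls in replicate 2 and W01D2.1 rises in replicate 1.

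Below these lay 6 rows with mean levels under 60 CPM. The nhr-19 row held 26.7, 64.1, 76.5 and 30.2 CPM in reduced replicates 1, 2, 3 and 5. It held 18.96, 21.3, 18.8 and 21.8 CPM in oxidized replicates 1, 2, 3 and 5. Every oxidized library was below every reduced one, as in 0.994% of rows tested, but the difference did not pass (log2 fold change −1.29, SE 0.59, unadjusted p = 0.0376, edgeR adjusted p = 0.916). The gene, on chromosome II at 9598180 to 9605526, shares 22 exon bases with mrpl-53, a gene named for a mitochondrial ribosomal protein, whose row held 31 counts.

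NHR-85 is related to insect E75 and vertebrate Rev-erb and takes part in the timing of larval development. Its row held 56.1, 29.03, 32.0 and 18.1 CPM in reduced replicates 1, 2, 3 and 5, and 47.0, 68.3, 47.0 and 63.9 CPM in the oxidized ones. It was higher in oxidized worms in 3 of 4 pairs, the groups overlapped, and it did not pass (log2 fold change 0.75, SE 0.53, edgeR adjusted p = 0.999). Of its 2516 exon bases on chromosome I, 835 are shared with npr-14, a neuropeptide receptor gene on the other strand, whose row held 31 counts.

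The nhr-101 row held 8.01, 22.02, 0 and 37.4 CPM in reduced replicates 1, 2, 3 and 5, and 33.4, 41.3, 20.4 and 37.7 CPM in the oxidized ones. The oxidized library was the higher in all 4 pairs, by as little as 0.013 on the log2 scale in replicate 5. The groups overlapped and the row did not pass (log2 fold change 0.91, SE 0.68, edgeR adjusted p = 0.999). With 0 counts in reduced replicate 3, its fold depends on the prior count. The gene shares 887 exon bases with H12C20.7 and 80 with pms-2, a mismatch repair gene, both on the other strand. No row was matched to H12C20.7, which covers 63.4% of the nhr-101 exon bases, and the pms-2 row held 11 counts.

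The remaining 3 tested rows had log2 fold changes near 0. NHR-66 works with NHR-49 in lipid metabolism. Its row stood at 54.9 ± 26.7 CPM in reduced and 49.4 ± 13.8 CPM in oxidized worms (SD, n = 4), and the range over all libraries was 28.1 to 91.7 CPM. The nhr-115 row stood at 46.0 ± 26.0 and 53.7 ± 36.3 CPM, with a range of 11.7 to 89.3 CPM. The nhr-114 row, whose receptor is needed for fertility on some bacterial diets, stood at 21.9 ± 12.48 and 24.1 ± 16.3 CPM, with a range of 10.8 to 47.0 CPM. Their log2 fold changes were −0.13 (SE 0.52), 0.18 (SE 0.61) and 0.11 (SE 0.66), each with an edgeR adjusted p of 0.999. The intervals reach from −1.20 to 0.94 for nhr-66, from −1.09 to 1.44 for nhr-115 and from −1.25 to 1.47 for nhr-114, so a change of more than 2-fold in either direction lies within the last 2. Neither nhr-115 nor nhr-114 shares exon bases with a gene on the other strand. The nhr-66 gene shares 22 with serp-1.2 and 108 with the antisense RNA gene anr-44, to which no row was matched.

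**Figure D5:**
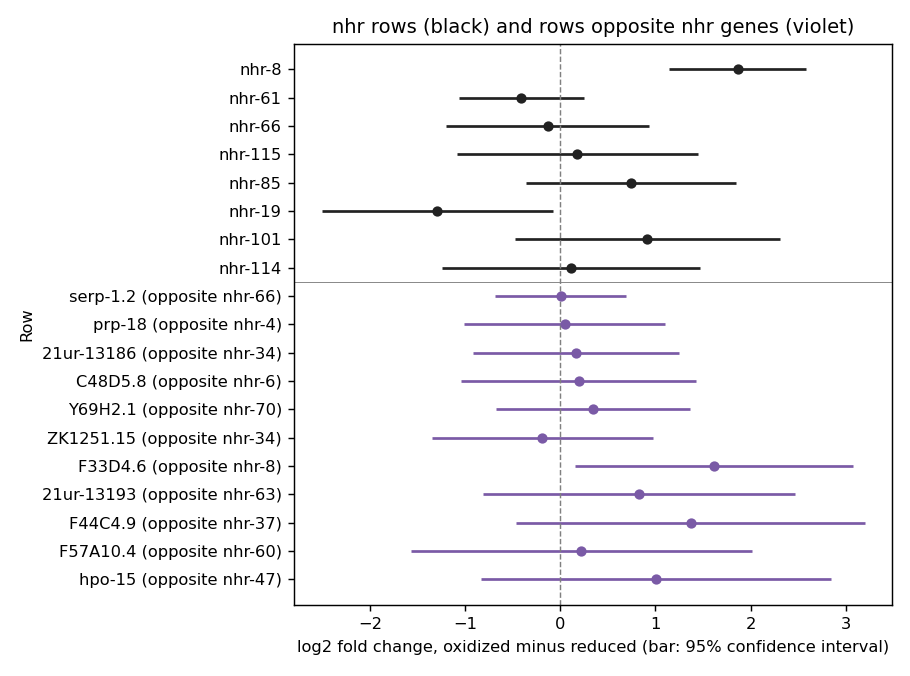
Log2 fold change, oxidized minus reduced, with its 95% confidence interval for the 8 tested nhr rows (black) and for the 11 tested rows that lie opposite an nhr gene (violet). The intervals of nhr-8 and F33D4.6 lie above 0 and that of nhr-19 below it, and only nhr-8 passed after adjustment over all rows.

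As a share of all counts, the nhr rows together made up 0.180% ± 0.0120 of the reduced libraries and 0.308% ± 0.0549 of the oxidized ones (SD over 4 replicates). The reduced libraries ranged from 0.169% to 0.197% and the oxidized from 0.250% to 0.373%, with no overlap. Without nhr-8 the direction turned, at 0.126% ± 0.0269 in reduced and 0.107% ± 0.0140 in oxidized libraries. Without nhr-8 and nhr-61 the shares were 0.0357% ± 0.00370 and 0.0391% ± 0.00651. These shares are a description of the counts, which nhr-8 dominates.

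The number of nhr rows with a count was 26 to 40 in the reduced and 31 to 41 in the oxidized libraries. Over all rows, 5058 to 7447 held a count in the reduced and 6280 to 7548 in the oxidized libraries. Reduced replicate 3 was the lowest by both measures. Among the 91 rows with counts that were too low to test, 61 had counts in only 1 or 2 libraries. Counts in reduced libraries only were found for 21 of them, in oxidized libraries only for 28, and in both for 42. Their counts summed to 446 in reduced and 475 in oxidized libraries.

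The untested rows with the most counts were nhr-246, nhr-26, nhr-86, nhr-1, nhr-41, nhr-49, nhr-25, nhr-31, nhr-109 and nhr-209. The nhr-246 row held 2, 0, 4 and 10 counts in reduced replicates 1, 2, 3 and 5, and 13, 9, 0 and 12 in the oxidized ones. The nhr-26 row held 13 counts in reduced and 29 in oxidized libraries, and shares 340 exon bases with ugt-50 on the other strand. NHR-86 takes part in the intestinal immune response to bacteria, and its row held 25 counts in reduced and 12 in oxidized libraries. The nhr-109 row shows how uneven such counts were, with 21 of its 22 counts in reduced replicate 1. The nhr-78 row, chosen after its values were seen, held 6 counts in oxidized replicate 1, 16 in oxidized replicate 2 and 0 in the other 6 libraries.

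Receptors with well known roles were among the rows too low to test. NHR-25, the relative of vertebrate SF-1 and LRH-1 that acts in moulting, had 8, 8, 4 and 0 counts in reduced replicates 1, 2, 3 and 5, and 2, 0, 0 and 1 in the oxidized ones. NHR-49, a regulator of fat use, had 12 counts in reduced and 15 in oxidized libraries. NHR-14 (which acts in iron uptake), NHR-6 (the relative of vertebrate NR4A) and NHR-48 (a relative of NHR-8) had 20, 20 and 16 counts in all. The rows of nhr-67 (the relative of insect tailless), nhr-28, nhr-91 and nhr-40 held 9, 5, 5 and 1. The rows of nhr-23, nhr-10, nhr-68, nhr-57, nhr-60 and nhr-80 held 0. With 0 counts the limit for a row in a library is 3 counts, or up to 4.70 CPM. That limit concerns the row, which need not hold the reads of its gene. Why these rows were at 0 was not tested.

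The nhr genes overlap other genes on the opposite strand in 39 cases, and in 28 of them the partner is protein-coding. Of the 8 tested rows 5 have such a coding partner (nhr-8, nhr-66, nhr-85, nhr-19 and nhr-101). The 39 nhr genes have 47 partners, of which 29 meet the nhr gene tail to tail, sharing 22 to 887 exon bases (median 60), 13 lie almost wholly inside an nhr exon and 3 are head to head. Rows were present for 45 partners, and 14 of these were at 0.

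Counts were high enough for a test in 11 partner rows, 6 of them tail to tail, 4 nested and 1 head to head. None passed (edgeR quasi-likelihood test), against 0.216% of all rows tested. At an unadjusted p under 0.05 there was 1, F33D4.6, beside 5.27% of all rows tested, and DESeq2 and limma voom called 0. The median log2 fold change was 0.22, beside −0.048 over all rows tested. Of the 11 rows 10 were above 0, where 45.8% of all rows tested were. The groups overlapped in all 11. Over all rows tested, 1.99% had every oxidized library above every reduced one and 0.994% below.

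The most abundant partner was serp-1.2, which shares 22 bases with the end of nhr-66. Its row held 3232 counts, at 512 ± 86.6 CPM in reduced and 515 ± 149 CPM in oxidized worms (SD over 4 replicates), and its log2 fold change was 0.0034 (SE 0.33, edgeR adjusted p = 0.999). The prp-18 row, named for a splicing factor and sharing 60 bases with nhr-4, held 587 counts, while nhr-4 itself was at 0. The Y69H2.1 row, opposite nhr-70, held 379 counts, against 16 for nhr-70. Log2 fold changes were 0.045 (SE 0.51) for prp-18 and 0.35 (SE 0.49) for Y69H2.1.

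Among nested rows, the piRNA gene 21ur-13186 inside an exon of nhr-34 held 446 counts, while nhr-34 held 3. The non-coding gene C48D5.8, 59 bases long and inside an exon of nhr-6, held 408 counts, against 20 for nhr-6. In reduced replicates 1, 2, 3 and 5 the C48D5.8 row stood at 92.2, 36.04, 57.04 and 66.4 CPM, and in the oxidized ones at 14.4, 32.7, 68.9 and 180 CPM, so that the highest and the lowest library were both oxidized. The rows of 21ur-13193 inside nhr-63 and F44C4.9 inside nhr-37 held 129 and 93 counts, and their nhr rows were at 0. ZK1251.15, an antisense gene that meets nhr-34 head to head, held 213 counts. The log2 fold changes of 21ur-13186, C48D5.8, 21ur-13193, F44C4.9 and ZK1251.15 were 0.16, 0.20, 0.83, 1.37 and −0.19, with SE of 0.52 to 0.89. Leaving out 1 library moved F44C4.9 between 0.68 and 3.09 and 21ur-13193 between 0.35 and 1.94. Of the 13 nested genes, 9 are piRNA genes of 21 bases, shorter than the reads of 50 nt. The labels name polyA RNA as the molecule, whereas their protocol describes total RNA depleted of ribosomal RNA, which was not settled here and bears on what counts in rows of non-coding genes hold.

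Genes that work with or under these receptors were read from lists. None of the 5 receptors without an nhr symbol (daf-12, sex-1, unc-55, fax-1 and odr-7) had enough counts, daf-12, the dauer receptor, being the highest at 69. Of 8 genes for dafachronic acid and sterol handling 0 were tested, and of 15 xenobiotic response genes 0 were tested. The median row of these lists held 0, 0 and 4 counts, in that order.

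Of 8 cofactor rows 4 were tested and 0 passed (edgeR; 0 also at an unadjusted p under 0.05 and by DESeq2 and limma voom), with a median log2 fold change of −0.26. These were sbp-1, the sterol regulatory element binding protein, at −0.47 (SE 0.51), and dpy-22, a Mediator subunit, at −0.73 (SE 0.65). The others were din-1, the DAF-12 corepressor, at −0.045 (SE 0.61), and smo-1, the SUMO protein, at 0.12 (SE 0.72). The sbp-1 row held 17809 CPM in reduced replicate 1 and 2709, 2866 and 2277 CPM in reduced replicates 2, 3 and 5. It held 2284 to 7045 CPM in oxidized libraries and was higher there in 3 of 4 pairs. Of 12 fatty acid desaturase, elongase and oxidation genes 4 were tested and 0 passed by the same 3 tools, with a median of −0.44. The desaturase rows fat-6, fat-2 and fat-1 had −1.22 (SE 0.71), −0.55 (SE 0.62) and 0.28 (SE 0.69), and the elongase row elo-5 −0.33 (SE 0.72). Leaving out 1 library moved fat-2 between −1.37 and −0.058.

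Of 10 rows for propionate and vitamin B12 metabolism, 6 were tested, 1 rose and 0 fell, beside 0.216% and 0.0% of all rows tested, with a median of −0.38. The row that rose was pccb-1, for part of the carboxylase that acts on propionyl-CoA, from 447 ± 261 to 2108 ± 197 CPM (SD over 4 replicates; log2 fold change 2.24, SE 0.36, edgeR adjusted p = 0.00253). All its oxidized libraries were above all reduced ones, and it is also the row most like nhr-8. The pccb-1 gene shares 43 exon bases with wrt-2 on the other strand, and which gene's reads the row holds was not tested. The acdh-1, alh-8 and pcca-1 rows had −0.68 (SE 0.68), −0.49 (SE 0.44) and 0.45 (SE 0.64). The call of pccb-1 was also lost when the labels of replicate 5 were exchanged (edgeR adjusted p = 0.998) and without reduced replicate 3 (0.0597).

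Of 14 moulting and cuticle rows 5 were tested, all 5 above 0 (45.8% of all rows tested were above 0) with a median log2 fold change of 0.80, and 0 passed. At an unadjusted p under 0.05 there were 2, beside 5.27% of all rows tested, and DESeq2 and limma voom called 0. The largest was dpy-7, a furrow collagen, at 2.28 (SE 0.82, edgeR adjusted p = 0.679), with 0 counts in reduced replicates 3 and 5, and it ranged from 1.53 to 4.41 over fits that left out 1 library. The rol-6 row, a cuticle collagen, had 1.39 (SE 0.44, edgeR adjusted p = 0.453; 0.70 to 1.71 leaving out 1 library), lin-42, the period relative, 0.80 (SE 0.61) and acn-1, needed for moulting, 0.40 (SE 0.43).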

How the data were processed

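The authors deposited raw counts per gene row, 1 column per library, per the labels' descriptions, and no normalization is recorded. The deposited counts are titled HTSeq counts, while the submitters' processing notes name TopHat2 2.0.13, Bowtie2 2.2.1 and Cuffdiff 2.1.1. For the genome build, annotation and strand setting of counting, nothing is given in the sources used here. The kit is strand-specific per the labels' protocols, with paired reads of 50 nt; the molecule label names polyA RNA, although the protocol depletes ribosomal RNA from total RNA. A further 2 value columns match no sample and were not used. Row names were matched to the Ensembl WBcel235 annotation (44933 of 45461 rows).

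Rows passing filterByExpr were scaled by TMM and tested without a block in edgeR 4.0.16 (glmQLFit, robust, legacy = FALSE; glmQLFTest) in R 4.3.3, with Benjamini-Hochberg adjustment and a threshold of 0.05; each SE was derived from the fold change and its F statistic. DESeq2 1.42.0, limma 3.58.1 voom, other filters and scalings, the block and fits without 1 library were alternatives. CPM uses TMM-scaled totals.

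Replicates are biological per the labels. Libraries of one number were taken as paired because their titles carry 1 date. Replicates 1 and 2 carry the same date, so the date does not settle which of their libraries form a pair. Deviations from the group means correlated at 0.058, −0.16, 0.13 and 0.30 within a number. Reduced replicate 2 with oxidized replicate 1 gave 0.41, and reduced replicate 1 with oxidized replicate 2 gave −0.093. The values do not settle the pairing. Members and lists were chosen with earlier results of these data known. Named rows were all tested nhr rows, the 10 highest untested ones, 16 known receptors, the 10 highest opposite rows, 4 members per list with the smallest p and the 5 rows most like nhr-8, with log2(CPM + 1). The 11th tested opposite row, hpo-15, appears in the plot of fold changes only. The planned permutation test of the summed nhr share was not run, since the sum follows the choice of members.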

Additional observations from a re-analysis of the deposited data

How the results depend on the processing

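The count of nhr rows called higher was 1 in every setting except 4. It was 0 with the labels of replicate 5 exchanged and ranged from 0 to 1 over the 8 fits that left out 1 library, which also had fewer libraries. No nhr row and no row opposite an nhr gene was called lower, and no opposite row higher, under any alternative run. The nhr-8 row kept its direction in all of them, from 1.003 with exchanged labels to 2.13, and had 1.88 with the replicate block, which gained a call for F53B1.2 and changed no other call of a named row. Over all rows the calls were 5 higher and 0 lower, against 11 and 4 with the block, 9 and 0 with DESeq2 and 3 and 0 with limma voom. The difference in the summed nhr share was 0.128 percentage points (0.106 to 0.147 leaving out 1 library), 0.0761 with exchanged labels, −0.0198 without nhr-8 and −0.0208 over rows with no coding gene opposite.

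Signs turned in rows that never passed; beyond the settings' own construction, the cause was not tested. With exchanged labels the values were 0.65 (nhr-66), −0.046 (nhr-115), −0.0017 (nhr-85), −0.30 (nhr-114), −0.013 (serp-1.2), −1.02 (C48D5.8), −0.48 (hpo-15), −0.010 (smo-1), 0.47 (fat-6), 0.30 (elo-5) and −0.34 (pcca-1). Without replicate 5 in both groups they were 0.38 (nhr-66), −0.092 (nhr-114) and −0.73 (C48D5.8). With limma voom they were −0.041 (nhr-115), −0.036 (serp-1.2), −0.19 (prp-18) and −0.37 (C48D5.8). With the replicate block they were −0.024 (serp-1.2), −0.054 (prp-18), −0.068 (C48D5.8) and 0.16 (sbp-1). With RLE size factors serp-1.2 had −0.0012, and din-1 had 0.021 with DESeq2, 0.017 with edgeR's legacy setting and 0.016 with no filter.

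Leaving out 1 library, values ranged from −0.34 to 0.26 (nhr-66), −0.23 to 0.58 (nhr-115), −0.42 to 0.54 (nhr-114), −0.16 to 0.16 (serp-1.2), −0.43 to 0.40 (prp-18), −0.17 to 0.57 (21ur-13186), −0.82 to 0.60 (C48D5.8), −0.35 to 0.91 (F57A10.4), −0.45 to 0.26 (din-1), −0.82 to 0.80 (sbp-1), −0.69 to 0.63 (smo-1), −0.060 to 1.00 (fat-1) and −1.04 to 0.020 (elo-5). The pccb-1 row ranged from 2.06 to 2.73 and lost its call in 1 of these fits, without reduced replicate 3, and had 0.95 with exchanged labels. Rows that kept their sign also moved: leaving out 1 library, nhr-101 ranged from 0.54 to 1.61, F33D4.6 from 1.13 to 2.18, Y69H2.1 from 0.046 to 0.55, ZK1251.15 from −0.52 to −0.018, lin-42 from 0.48 to 1.26, acn-1 from 0.28 to 0.73, pcca-1 from 0.14 to 0.94 and acdh-1 from −1.19 to −0.49. At this depth 261 of 269 rows held too few counts to be tested.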
